A study of Mus musculus with 16 samples.

Results

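The cells described here are those that the authors' transfer of labels from a mouse gastrulation atlas named Intermediate mesoderm. They were taken at all stages, with doublet calls left out, and numbered 405 of 37841 analysed cells (1.07%). They came from chimeric mouse embryos in which *Stat3* null embryonic stem cells (ESCs) on the CD1 background had been injected into wild-type (WT) CD1 blastocysts. The null allele has several of the gene's exons replaced by a neomycin resistance cassette. The ESCs carried a tdTomato reporter, introduced by transfection and puromycin selection of picked colonies, so the null cells trace back to a cultured line while the WT cells are host cells of the same embryos. Any effect of the line, the reporter or the selection cannot be told apart from that of the genotype. tdTomato-positive cells (null) and tdTomato-negative cells without a tdTomato transcript (WT) were sequenced in droplets, cell by cell, with unique molecular identifiers (UMIs) counted at the 3′ ends of transcripts. Embryonic day (E) 7.5 and E8.5 had 2 null and 2 WT libraries each, and E9.5 had 4 of each. Each embryo pool gave 1 null and 1 WT library, but the library names do not say which belong together. The embryos of E7.5, classed as large or small, and of E8.5 went into pools. The 2 E7.5 libraries of a genotype may thus be the large and the small embryos, which their names do not tell. At E9.5 the libraries came from 2 embryos, so the 4 of a genotype share embryos. The libraries are named by letter. The p-values measure the spread between libraries, which may be technical and at E7.5 may include differences of embryo size.

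Intermediate mesoderm lies between the somite-forming paraxial mesoderm and the lateral plate, and gives rise to the nephric duct, the kidneys and part of the gonads. In the mouse it is recognised by the transcription factors Osr1 and Lhx1, joined later by Pax2 and Pax8 in the nephric lineage. Before it takes shape, the posterior mesoderm that leaves the primitive streak expresses Tbx6, Delta-Notch genes such as *Dll1* and *Hes7* that belong to the segmentation clock, and *Aldh1a2*, the main enzyme of embryonic retinoic acid synthesis.

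At E7.5 these cells made up a sizeable share of every library, and at the later stages almost none carried the label. Of the 405 cells, 384 (94.8%) were from E7.5. The share was 9.54% in WT A (69 of 723 cells), 3.65% in WT B (65 of 1783), 10.3% in null A (223 of 2172) and 7.5% in null B (27 of 360). The exact 95% binomial intervals ran from 7.5% to 11.9%, from 2.82% to 4.62%, from 9.02% to 11.6% and from 5.0% to 10.7%, and cover counting error only. WT B was thus the low library, and WT A lay between the 2 null libraries. Over 27 cell types, with library sizes scaled across types (TMM), the fitted log2 difference of null from WT was 0.09 (SE 0.74, edgeR adjusted p = 0.991). From plain library totals it was 0.44 (SE 0.74, edgeR adjusted p = 0.963). A difference between genotypes was thus not detectable against the spread between libraries. Leaving out WT B turned the direction, to -0.30.

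At E8.5, 9 cells were labelled in WT B and 6 in null B, with 0 of 2544 cells in WT A and 0 of 3833 in null A, which allow shares of up to 0.118% and 0.0783%. At E9.5 there were 6 labelled cells, 2 in WT A, 1 in WT B and 1 each in null A, null C and null D. No library of these stages held over 15 such cells, so the tests planned on genes at E8.5 and E9.5, from E8.5 to E9.5, and against the lateral plate at E9.5 could not be made. With no minimum of cells per type, the fitted log2 differences in abundance were 0.62 (SE 2.01) at E8.5 and 0.16 (SE 1.55) at E9.5, with adjusted p = 0.983 and 0.974. The E9.5 value counts libraries that share embryos as separate, so its p does not measure the spread between embryos and may be too small or too large.

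**Figure D1:**
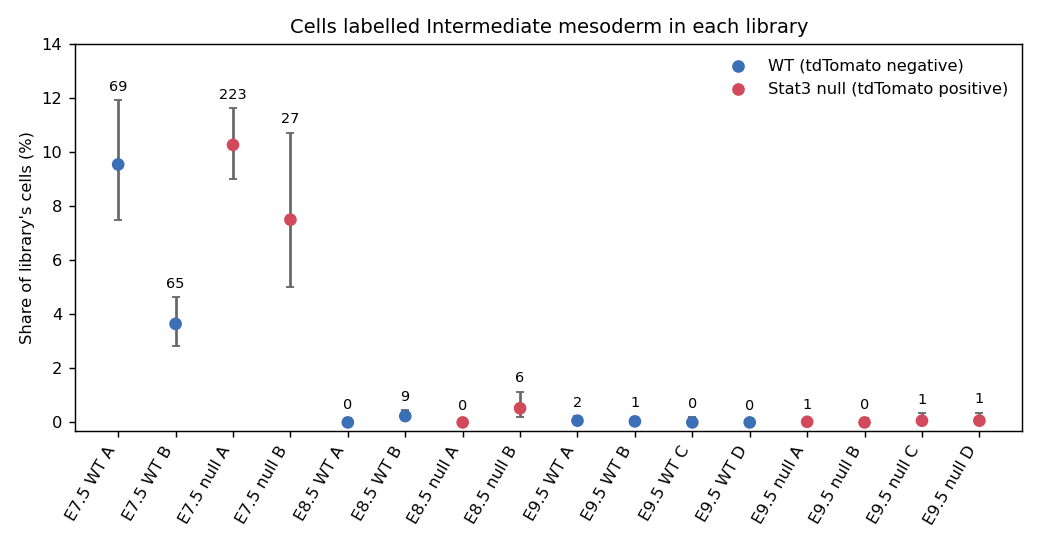
Share of each library's cells that carried the label Intermediate mesoderm, in percent, with exact 95% binomial intervals as bars and the number of labelled cells above each point. The 4 E7.5 libraries lie between 3.65% and 10.3%, and all libraries of E8.5 and E9.5 lie at 0.524% or below.

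The E7.5 cells were deeply sequenced, with a median of 36045 UMIs. The summed UMIs were 2293984 in WT A, 1907394 in WT B, 8672188 in null A and 1407401 in null B, so that 1 UMI was worth 0.436, 0.524, 0.115 and 0.711 counts per 1000000 UMIs (CPM), and null A is the most precise library. A tdTomato transcript was found in 221 of the 223 null A cells and in all 27 of null B. No cell barcode was shared between libraries. The median label score, the share of 25 neighbouring atlas cells with the same label, was 0.92, against 0.84 for Lateral plate mesoderm and 0.72 for Paraxial mesoderm.

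The defining markers of the intermediate mesoderm were only partly there. *Lhx1*, which lies on chromosome 11 (84518284 to 84525535, minus strand, GRCm38), stood at 89.4 CPM in WT A, 41.4 in WT B, 86.8 in null A and 54.7 in null B. It was present in every library, and the genotypes overlapped. *Osr1* (chromosome 12, 9570116 to 9581500, plus strand) was low, at 9.59 CPM in WT A, 3.67 in WT B, 7.96 in null A and 0 in null B, where a count of 0 allows up to 2.13 CPM. The later nephric and kidney factors were at or near 0. The highest library had 0.436 CPM of *Pax2*, 0.711 of *Pax8*, 0.115 of *Wt1* and 1.57 of *Gata3*.

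The same picture held in single cells. With each cell thinned to 10000 UMIs, which left out no cell, *Lhx1* was found in 43.5% of cells in WT A, 27.7% in WT B, 43.9% in null A and 44.4% in null B. In ExE ectoderm, an extra-embryonic tissue taken as a type without *Lhx1* in place of the planned Erythroid cells, the share was 2.12% of 283 cells. Their median was 37967 UMIs. *Osr1* was found in 10.1%, 4.62%, 6.73% and 0% of the cells of those libraries, and in 0 of the 283 ExE ectoderm cells, which allows up to 1.06%. The 0 of 27 cells in null B allows up to 11.1% of cells with a UMI at this depth, which sets no limit on cells that express a gene as low as *Osr1*. Without thinning, 256 of the 384 cells had an *Lhx1* UMI and 48 had one of *Osr1*. Both were seen together in 42 cells, and *Osr1* without *Lhx1* in 6.

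Neither marker singled the label out. At E7.5, mean *Lhx1* was 68.1 CPM in these cells, below Node (331 CPM), Nascent mesoderm (277 CPM), Visceral endoderm (185 CPM) and Paraxial mesoderm (85.4 CPM). Mean *Osr1* was 5.30 CPM, below Paraxial mesoderm (15.9 CPM), Nascent mesoderm (6.77 CPM) and Cardiopharyngeal progenitors SHF (5.54 CPM). These are means over null and WT libraries with more than 15 cells of a type, null B at 0 included. In the summed UMIs of the WT libraries alone, over types of at least 50 cells, *Osr1* was at 6.90 CPM in these cells, second to Paraxial mesoderm (13.98 CPM) and above Nascent mesoderm (3.03 CPM). For comparison, among the WT types of E9.5 the label Kidney primordium had 192 CPM of *Lhx1*, 126 of *Pax2*, 52.0 of *Pax8* and 72.1 of *Osr1*.

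Among genes of at least 20 CPM in these cells, *Aldh1a2*, *Tbx6*, *Meox1*, *Dll1* and *Hes7* had the largest ratios over the other cell types. *Msgn1*, below that minimum at 18.0 CPM, had a larger log2 ratio than *Hes7* (3.64 against 3.43), with Caudal epiblast next at 3.61 CPM. The labels were themselves transferred from expression, so these levels are a description without a test. *Aldh1a2* (chromosome 9, 71215789 to 71296243) had a mean of 648 CPM in these cells and 27.6 CPM over the other 17 cell types of at least 50 cells, with Paraxial mesoderm next at 147 CPM. *Tbx6*, the T-box factor that directs cells to a paraxial rather than a neural fate (chromosome 7, 126781483 to 126785560), stood at 141 CPM, and the next type was Nascent mesoderm at 36.5 CPM. *Dll1*, a Notch ligand, stood at 121 CPM against 46.8 in Nascent mesoderm. *Hes7*, the oscillating repressor of the segmentation clock, stood at 117 CPM against 79.8 in the Node. *Meox1*, a homeobox gene of somites and their precursors, stood at 92.0 CPM against 35.5 in Paraxial mesoderm.

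The same minimum level held for the 15 genes with the largest ratio over the remaining types. The others among them were *Arg1*, *Pcdh19*, *Rhbg*, *Car3*, *Fabp7*, *Rnf213*, *Hoxa2*, *Peli3*, *Hoxb1* and *Cdx1*. *Cdx1*, a caudal homeobox gene, was the only one of the 15 with another type above it, Caudal epiblast at 351 CPM against 280 CPM here. *Hoxb1* stood at 348 CPM, and its next type, Caudal epiblast, at 181 CPM.

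Summed over whole lists, the 16 paraxial and somitic markers came to 1308 CPM in these cells, the highest of the 18 types, followed by Paraxial mesoderm with 486 CPM. *Aldh1a2* alone gave 648 CPM of this sum. Not every member was highest here, since *Tcf15* was at 26.7 CPM against 205 CPM in Paraxial mesoderm. The 30 intermediate mesoderm and kidney regulators also summed highest here, at 1837 CPM against 1653 in the Node. Much of that sum came from a few genes. *Meis2*, a homeodomain cofactor, stood at 391 CPM, the highest of the 18 types, and was found in 93.2% of thinned cells, and the transcriptional coregulators *Cited1* and *Cited2* in 83.3% and 96.1%. Of the 30 regulators, 12 were found in at most 1% of thinned cells. *Cited1*, *Cited2* and *Sall4* were also frequent in ExE ectoderm (59.7%, 51.2% and 65.7%), whereas *Meis2* was not (3.53%). *Foxc1* and *Foxc2*, forkhead genes of paraxial and intermediate mesoderm, were found in 38.3% and 25% of thinned cells, against 1.41% and 1.06% in ExE ectoderm. By mean level *Foxc1* was highest here, at 54.7 CPM, with Cardiopharyngeal progenitors SHF close at 51.0 CPM. *Foxc2* was at 36.4 CPM, below the 91.0 CPM of Paraxial mesoderm.

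Without thinning, *Tbx6* was found in 352 of the 384 cells (91.7%) and *Aldh1a2* in 363 (94.5%), against 3.53% and 8.13% of ExE ectoderm cells. Of the 256 cells with *Lhx1*, 230 also had *Tbx6* and 242 *Aldh1a2*. Of the 48 cells with *Osr1*, 45 had *Tbx6* and 47 *Aldh1a2*. *Foxf1*, a lateral plate gene, was found together with *Tbx6* in 158 cells and without it in 25.

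The 13 tail bud and neuromesodermal genes summed to 1088 CPM, rank 3 of the 18 types after the Node (2056 CPM) and Caudal epiblast (1565 CPM). The 15 lateral plate and limb markers summed to 280 CPM, rank 7 of the 18 types, while Lateral plate mesoderm led that list. Endothelial markers summed to 15.2 CPM, mesothelium markers to 81.1, erythroid markers to 53.7, neural markers to 55.3, neural crest markers to 22.5 and endoderm markers to 105 CPM. The erythroid genes *Slc4a1*, *Rhag* and *Hemgn*, the endothelial gene *Emcn* and the neural gene *Olig2* had no UMI in any of the 4 libraries. Late somite genes were also nearly absent, with *Meox2*, *Pax1*, *Uncx* and *Myf5* in no thinned cell.

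The data thus go against the name in part. The cells had *Lhx1*, little *Osr1*, *Pax2*, *Pax8* and *Wt1* at or near 0, and the highest *Aldh1a2*, *Tbx6*, *Meox1*, *Dll1* and *Hes7* of the 18 labels. They are called by the authors' label below only as a name.

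**Figure D2:**
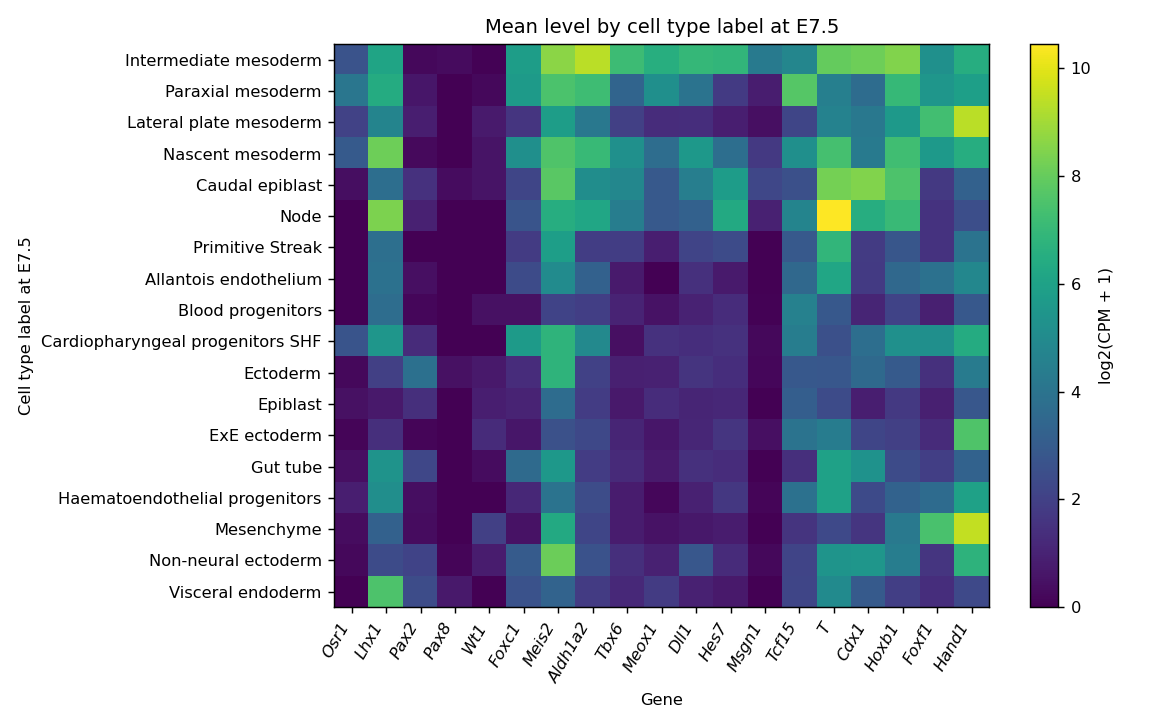
Heatmap of mean level, as log2(CPM + 1), of 19 genes across the 18 E7.5 cell type labels with at least 50 cells, one label per row. The top row, Intermediate mesoderm, is highest for *Aldh1a2*, *Tbx6*, *Meox1*, *Dll1* and *Hes7* and near 0 for *Pax2*, *Pax8* and *Wt1*.

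Within the E7.5 cells, the atlas stage to which each cell had been mapped varied. Of the 384 cells, 159 mapped to day 7.5, 172 to day 8.0 and the other 53 to the stage between. The mean mapped day was 7.83 in WT A, 7.65 in WT B, 7.76 in null A and 7.81 in null B. Both null libraries lay between the 2 WT libraries, and the null mean exceeded the WT mean by 0.0392 days (exact two-sided permutation test, p = 1, with 0.33 the smallest p that 2 against 2 libraries allow). WT B, with the fewest labelled cells for its size, was also the youngest, with 66.2% of its cells mapped to day 7.5, against 24.6% in WT A, 40.8% in null A and 29.6% in null B.

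Mapping was done on expression, so the genes that differ with mapped stage are given as a description. Of 5549 genes of at least 20 CPM in either class, 480 were higher and 606 lower at day 8.0 in all 4 libraries. Many genes would move one way in 4 libraries without any difference by stage, and how many was not estimated. The counts are therefore not evidence of a difference. In null B only 8 cells mapped to day 7.5 and 14 to day 8.0. Among the 480, the largest rise was in *Tcf15*, a basic helix-loop-helix factor of the paraxial mesoderm. Its mean was 8.20 CPM in cells mapped to day 7.5 and 48.3 CPM in cells mapped to day 8.0. Over all 384 cells its thinned share, 14.1%, was close to the 13.4% of ExE ectoderm. *Meox1* went from 44.3 to 138 CPM, *Aldh1a2* from 353 to 831 CPM, and *Prrx2* from 21.5 to 59.0 CPM. *Smoc1*, a secreted BMP modulator, went from 8.84 to 35.7 CPM.

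Other genes were lower in the cells mapped to day 8.0. *Mesp1*, the early mesoderm factor, stood at 423 CPM in cells mapped to day 7.5 and 161 CPM in cells mapped to day 8.0. *T* (Brachyury) fell by 1.08 on the log2 scale, from 351 to 165 CPM, and *Fgf8*, the growth factor of the streak and presomitic mesoderm, went from 117 to 54.1 CPM. *Igfbp3* went from 32.1 to 9.05 CPM and *Pdgfa* from 49.1 to 18.2 CPM. All of these had the same direction in each of the 4 libraries. The genes with the largest rise or fall were picked from those that did so, and for them this agreement is not evidence. *Tbx6* (103 and 162 CPM) and *Hes7* (72.8 and 142 CPM) also rose in all 4, while *Dll1* (104 and 123 CPM) and *Lhx1* (70.1 and 60.1 CPM) did not move the same way in every library. *Osr1* was higher at day 8.0 in the 3 libraries that held it, with means of 2.61 and 8.42 CPM.

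**Figure D3:**
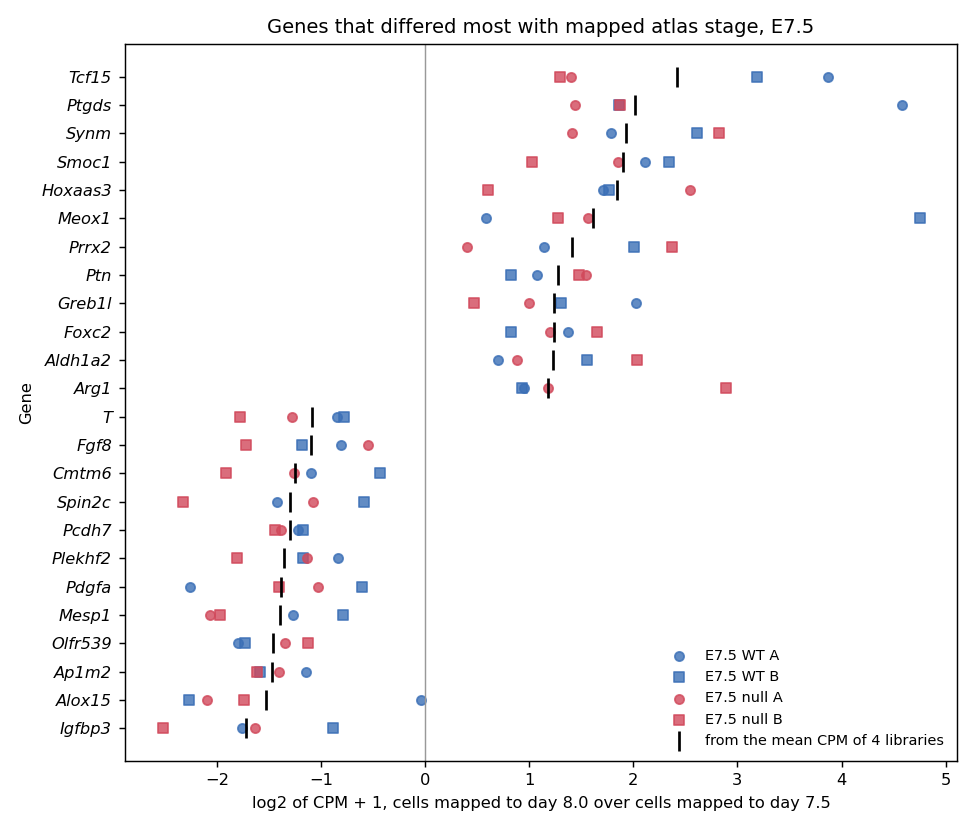
Difference in level between cells mapped to day 8.0 and to day 7.5, as log2 of CPM + 1, for the 12 genes with the largest rise and the 12 with the largest fall among genes that moved one way in all 4 E7.5 libraries. Each point is a library (blue WT, red null, circles A, squares B), the black tick the ratio of the means, and *Tcf15* has the largest ratio of the means.

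The labelled cells of the later stages were few and had lower label scores, with medians of 0.6 and 0.66 in the 2 libraries of E8.5 and from 0.48 to 0.8 in those of E9.5. The counts given here are of cells with a UMI, without thinning, and no background share was taken at these stages. Of the 15 cells of E8.5, 12 mapped to day 8.0, 10 had *Tbx6*, 13 *Dll1*, 12 *Hes7*, 4 *Osr1* and 3 *Lhx1*. Of the 6 null-sorted cells of E8.5, 2 had a tdTomato UMI. Each of the 6 cells of E9.5 had *Meox1*, *Tcf15*, *Pax3*, *Foxc2* and *Tbx6*, with 117 UMIs of *Meox1* and 90 of *Tcf15* in all, and none had *Osr1* or *Lhx1*.

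Over the 46 WT cell types of E9.5 with at least 50 cells, the genes whose log2(CPM + 1) was most like that of *Osr1* were *Des* (r = 0.84), *Amph* (0.82), *Tcf21* (0.79), *Arg1* (0.75) and *Eno3* (0.73), as Pearson's r across types whose cells share libraries. *Osr1* itself was highest in Cardiopharyngeal progenitors FHF, at 191 CPM, and *Arg1* was among the 15 genes that led the E7.5 cells.

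The comparison of null with WT cells at E7.5 asks whether cells without STAT3 express genes as the host cells beside them do. *Stat3* itself (chromosome 11) had 9 UMIs in WT A, 9 in WT B, 14 in null A and 1 in null B, that is 3.92, 4.72, 1.61 and 0.711 CPM. Both null libraries were below both WT libraries, but the gene was too low for the filter of the main test. With no filter its log2 fold change was -1.50 (SE 0.65, edgeR adjusted p = 0.898), and with DESeq2 it was -1.70 (SE 1.11, adjusted p = 1.00). Reads of this assay come from the 3′ end, which lies beyond the replaced exons, so the level does not check the allele.

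Few genes separated the genotypes. Of 8998 genes tested with edgeR, 16 had an adjusted p under 0.05 with a log2 fold change beyond 1 in either direction (0.178% of those tested), 7 of them higher (0.0778%) and 9 lower (0.1%) in null cells. At an unadjusted p under 0.05 there were 418 (4.65%). In all 16 the null libraries lay beyond both WT libraries, which was so for 32.5% of all genes tested. The count moved with single libraries: it was 4 without null A, 10 without null B, 25 without WT B and 67 without WT A. With all 4 libraries DESeq2 called 8. Of the 9 alternatives used, leaving out null B and requiring over 50 cells per library are the same fit, yet are counted separately here and below. Another left out the few null-sorted cells without a tdTomato UMI. *Grb10* and *H19* passed under all 9 alternatives.

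The 2 genes with the smallest p are imprinted, that is, expressed from only 1 parental copy. *Grb10*, an adaptor that dampens insulin and IGF receptor signalling (chromosome 11, 11930508 to 12038683, minus strand), stood at 195 CPM in WT A and 187 in WT B, and at 2.54 in null A and 2.84 in null B. The null libraries were thus far below the WT libraries with a narrow spread in both (191 ± 5.75 against 2.69 ± 0.216 CPM, mean ± SD, n = 2 libraries each), and the gene fell by 6.17 on the log2 scale (SE 0.22). *H19*, an imprinted non-coding RNA next to *Igf2* (chromosome 7, 142575529 to 142578143, minus strand), stood at 82.8 and 61.3 CPM in WT and at 8.53 and 3.55 in null, and fell by 3.24 (SE 0.25). Their adjusted p were 1.45e-14 and 2.66e-07. *Igf2* did not pass, with 20.9 and 14.2 CPM in WT and 41.5 and 12.1 in null (log2 fold change 0.87, SE 0.60).

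The promoter of *Grb10* is shown because it belongs to the gene with the largest fold change, with CG dinucleotides, the sites of DNA methylation, in capitals. It is the richer in CG of the gene's 2 RefSeq windows of 250 bases before to 50 after a start (GRCm38.p6), and holds 45 against a median of 7 over all 32851 windows, a count reached by 1.93% of them. No methylation was measured here.
Grb10, chr11:12037371-12037670, minus strand: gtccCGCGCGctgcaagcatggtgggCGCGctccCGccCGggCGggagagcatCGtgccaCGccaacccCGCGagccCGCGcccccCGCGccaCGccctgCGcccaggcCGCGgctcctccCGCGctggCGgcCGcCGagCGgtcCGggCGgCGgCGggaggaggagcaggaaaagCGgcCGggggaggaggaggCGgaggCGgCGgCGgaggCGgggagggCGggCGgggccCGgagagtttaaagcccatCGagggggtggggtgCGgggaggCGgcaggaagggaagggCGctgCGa

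Of the other genes that fell, *Alpl*, tissue-nonspecific alkaline phosphatase, stood at 33.1 and 15.7 CPM in WT and at 2.88 and 2.13 in null (log2 fold change -3.14, SE 0.38). *Rhox5*, an X-linked homeobox gene, stood at 10.5 and 12.1 CPM in WT and at 0.922 and 0.711 in null (-3.58, SE 0.50). Its mean over both genotypes was 6.04 CPM in these cells and 1610 CPM in ExE ectoderm, the type with the most. Whether transcripts from other cells added to these low counts was not tested. *Pusl1*, a pseudouridine synthase-like gene, stood at 24.4 and 29.4 CPM in WT and at 6.23 and 8.53 in null (-1.96, SE 0.28). All 3 lay well apart between genotypes, and each lost the call without null A. *Pusl1* also lost it with only cells mapped to the 2 later stages.

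*Hspa12b*, of the HSP70 family, stood at 10.5 and 7.86 CPM in WT and at 0.922 and 0.711 in null (-3.31, SE 0.53). *Rnf17*, a Tudor-domain gene of germ cells, stood at 5.67 and 12.6 CPM in WT and at 1.27 and 0 in null, where the 0 rests on 1407401 UMIs (-3.01, SE 0.60). It too was highest in ExE ectoderm, at 31.7 CPM against a mean of 4.88 CPM here. *Hist1h4i*, a histone H4 gene, stood at 32.3 and 32.5 CPM in WT and at 15.8 and 12.1 in null (-1.10, SE 0.23). *Pura*, a nucleic acid-binding protein, stood at 77.2 and 118 CPM in WT and at 44.9 and 53.3 in null (-1.0, SE 0.19), at the edge of the fold limit. Of these, *Pura* lost the call under 8 of 9 alternatives, *Hspa12b* under 6 and *Hist1h4i* under 5. *Rnf17* lost it under 5, kept it under 3 and was not tested under 1.

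Of the genes that rose, *Slc38a4*, an amino acid transporter that is imprinted (chromosome 15), stood at 62.3 and 59.8 CPM in WT and at 122 and 145 in null (log2 fold change 1.14, SE 0.15). Both null libraries were well above both WT libraries, and the call was kept under 8 of 9 alternatives.

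*Cap2*, an actin regulator, stood at 4.36 and 1.57 CPM in WT and at 12.8 and 14.9 in null (2.14, SE 0.42). *Zfp985*, of a large zinc finger family, stood at 3.05 and 3.67 CPM in WT and at 12.7 and 14.2 in null (1.99, SE 0.39). Its relatives *Zfp984* and *Zfp979* had log2 fold changes of 1.64 and 1.14 but did not pass (adjusted p = 0.180 and 0.464), and reads may be shared between such copies. *Tubb4a*, a beta-tubulin, stood at 19.6 and 10.5 CPM in WT and at 34.4 and 40.5 in null (1.27, SE 0.26). *Hist1h3c*, a histone H3 gene, stood at 29.2 and 27.3 CPM in WT and at 69.8 and 43.3 in null (1.11, SE 0.21). *Thg1l*, a tRNA-histidine guanylyltransferase (chromosome 11, 45946843 to 45955494), stood at 21.8 and 21.5 CPM in WT and at 39.0 and 57.6 in null (1.10, SE 0.23). Histone genes also have near-identical copies, so the 2 histone calls are uncertain. *Cap2* and *Tubb4a* lost the call under 6 of 9 alternatives, *Zfp985* and *Thg1l* under 5 and *Hist1h3c* under 3.

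**Figure D4:**
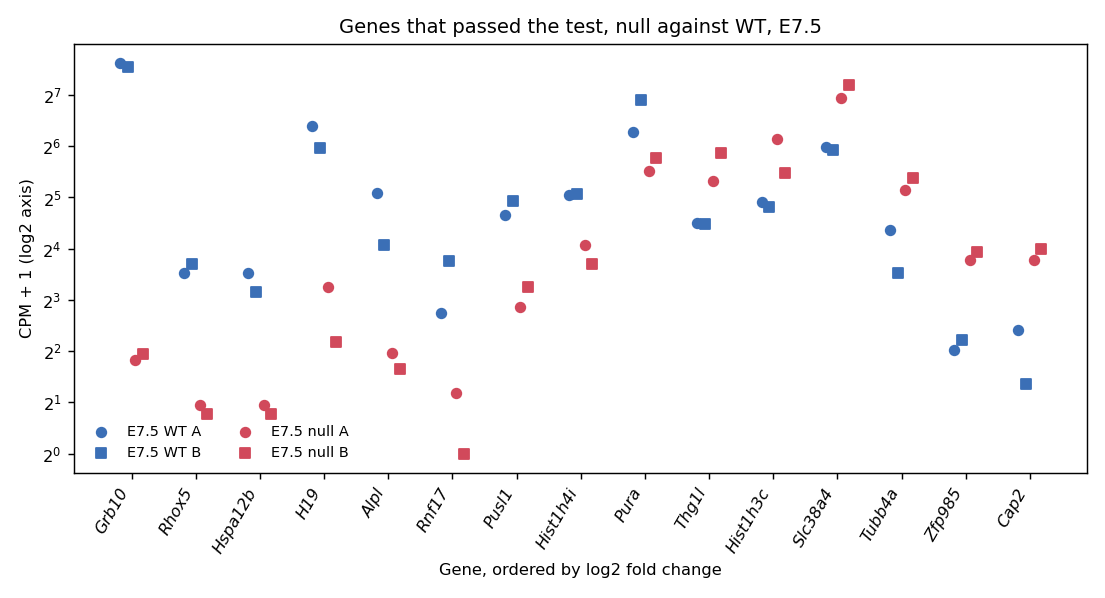
Level of 15 of the 16 genes that passed the test, as CPM + 1 on a log2 axis, in each E7.5 library (blue WT, red null, circles A, squares B), ordered by log2 fold change from *Grb10* (-6.17) to *Cap2* (2.14). In every gene both null points lie on one side of both WT points.

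Of the 16, 3 were in any of the gene lists examined (*Grb10*, *H19* and *Zfp985*, in the list of imprinted and recurrently shifted genes). Of the 30 intermediate mesoderm and kidney regulators, 15 were tested and 0 passed with edgeR or DESeq2, with 0 at an unadjusted p under 0.05 in either. Their median log2 fold change was 0.10, against -6.7e-05 over all genes tested. The 2 with the smallest p were *Cited2* (log2 fold change 0.40, SE 0.19) and *Sall4* (-0.23, SE 0.13). *Lhx1* had a log2 fold change of 0.20 (SE 0.46) and *Osr1* of -0.14 (SE 0.92). The share of thinned cells with *Lhx1* averaged 35.6% in WT and 44.2% in null, and that with *Osr1* 7.38% and 3.36% (exact permutation tests, p = 0.33 and 0.667, adjusted p = 1 over the 30 regulators).

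Of the 26 nephric signalling and adhesion genes, 13 were tested and 0 passed in edgeR or DESeq2, with a median of -0.10. At an unadjusted p under 0.05 there was 1 (edgeR), against 4.65% of all genes tested. *Slit2*, a guidance ligand, had -0.76 (SE 0.32) and *Bmp4* -0.48 (SE 0.24). Of the 8 adrenogonadal genes, 2 were tested and neither passed in either tool or at the unadjusted threshold, with *Cbx2* at 0.24 (SE 0.18) and *Gata4* at -0.41 (SE 0.45).

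Of the 16 paraxial and somitic markers, 10 were tested and 0 passed with edgeR or DESeq2, with 3 of the 10 at an unadjusted p under 0.05 (edgeR), which 4.65% of all genes tested reached, and a median of -0.07. *Mesp2*, which sets the segment border, was at 13.9 and 8.91 CPM in WT and at 4.84 and 3.55 in null, with a log2 fold change of -1.31 (SE 0.38, adjusted p = 0.401). *Tbx6* was at 134, 91.7, 139 and 199 CPM in WT A, WT B, null A and null B (0.56, SE 0.23). *Meox1* was at 154, 81.3, 71.8 and 61.1 CPM (-0.77, SE 0.30, adjusted p = 1). *Aldh1a2* was at 773, 295, 690 and 836 CPM, with WT B the low library and the genotypes overlapping (0.54, SE 0.65).

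Of the 13 tail bud and neuromesodermal genes, all 13 were tested and 0 passed in either tool, with 1 at an unadjusted p under 0.05 (*Epha5*, 0.74, SE 0.31), and the next gene by p was *Sp8* (-0.56, SE 0.27). Of the 39 Hox genes, 14 were tested and 0 passed in either tool, with 1 at the unadjusted threshold, *Hoxb1* (0.31, SE 0.13), followed by *Hoxd9* (-0.98, SE 0.52). Of the 18 retinoic acid genes, 12 were tested and 0 passed in either tool or at the unadjusted threshold, with *Rara* at 0.42 (SE 0.28) and *Rarg* at -0.31 (SE 0.25). Of the 25 BMP genes, 14 were tested and 0 passed in either tool. In edgeR 3 of the 14 were under the unadjusted threshold, and in DESeq2 0 of the 24 that it tested. Among the 3 were the inhibitor *Smad7* (-0.78, SE 0.30) and *Bambi* (-0.56, SE 0.25). The unadjusted counts given for the tail bud, Hox and BMP genes are from edgeR, where 4.65% of all genes tested reached the threshold. All 30 cell cycle genes were tested and 0 passed in either tool or at the unadjusted threshold, with a median of 0.04. *Cdc20* had 0.36 (SE 0.17) and *Ccna2* 0.28 (SE 0.14).

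Of the 33 genes of the STAT pathway and its known response, 22 were tested and 0 passed in either tool, with a median of -0.05. At an unadjusted p under 0.05 there were 3 in edgeR, against 4.65% of all genes tested, and 1 in DESeq2. *Irf1*, an interferon regulatory factor that STAT proteins can induce, was at 10.9 and 25.7 CPM in WT and at 7.15 and 6.4 in null, with a log2 fold change of -1.33 (SE 0.36, adjusted p = 0.354). *Jak1* had -0.44 (SE 0.19). *Socs3*, the feedback inhibitor of this pathway, was too low for the main filter, at 1.31 and 1.05 CPM in WT and 2.77 and 2.13 in null. With no filter its log2 fold change was 1.17 (SE 0.80, edgeR adjusted p = 0.991), and with DESeq2 it was 1.11 (SE 1.33, adjusted p = 1.00).

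The bases to which STAT dimers are known to bind are a palindrome, TTCNNNGAA, of which TTCCNGGAA is the tighter form and is contained in it. Both read the same on either strand. RefSeq promoter windows (GRCm38.p6) were matched for 10 of the 16 genes and 29 of the 33 STAT pathway genes. TTCCNGGAA was in 1.15% and TTCNNNGAA in 8.30% of all 32851 windows. Counted by gene, which is another unit since the 10 genes have 15 windows and the 29 have 40, 1 of the 10 held the motif, *Thg1l*, and 5 of the 29 did (2 with the tighter form). For each of these genes 1 site is shown with 10 bases on each side, the motif in capitals, in the direction of the gene. *Bcl6* has further matches, not printed. A match is a description of the letters and no binding was measured.
Thg1l, chr11:45955216-45955244, minus strand: gcgcccacacTTCCGGGAAgtgcgcctct
Cish, chr9:107296649-107296677, plus strand: ccgcccagttTTCCTGGAAagttcttgga
Bcl6, chr16:23981433-23981461, minus strand: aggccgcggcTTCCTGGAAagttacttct
Socs3, chr11:117969502-117969530, minus strand: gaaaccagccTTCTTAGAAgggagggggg
Irf1, chr11:53769914-53769942, plus strand: acagcctgatTTCCCCGAAatgatgaggc
Ifitm3, chr7:141010713-141010741, minus strand: aaaaggaaacTTCTGAGAAaccgaaactg
The *Thg1l* site lies 46 bases before the second of the gene's 2 annotated starts. Of these genes *Thg1l* passed the test, as a rise in null cells. *Irf1* and *Socs3* had the values given above.

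Of the 19 imprinted and recurrently shifted genes, which were listed because earlier results of these data had shown them to move, 16 were tested and 3 passed (*Grb10* and *H19* lower, *Zfp985* higher) by edgeR. Before adjustment 8 of them were under 0.05, and with DESeq2 only *Grb10* and *H19* (2) passed. Over all genes tested 0.178% passed and 4.65% were under 0.05 before adjustment. Since the list was chosen on these data, neither its counts nor its direction are independent evidence. *Meg3* (-0.34), *Dlk1* (-1.07) and *Mirg* (-0.68), of 1 imprinted cluster, did not pass, while *Peg3* (-0.07), *Snrpn* (-0.05) and *Phlda2* (-0.06) were near 0.

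Markers of other cell types did not pass either. Of the lateral plate and limb list 8 of 15 were tested and 0 passed in either tool, with a median of -0.36. Of the 8, 7 were negative and 1 was at an unadjusted p under 0.05 (edgeR), which 4.65% of all genes tested reached. The list summed to 246, 417, 240 and 217 CPM in WT A, WT B, null A and null B. *Msx2* had -0.98 (SE 0.41) and *Irx5* -0.69 (SE 0.37). Of the mesothelium, endothelial, erythroid, neural, neural crest and endoderm lists 3, 1, 1, 3, 1 and 2 genes were tested, and 0 passed with edgeR, 0 at the unadjusted threshold. DESeq2, fitted here on more low genes, called 1 of the endoderm genes, *Ttr*, at 4.36 and 12.1 CPM in WT and at 0.115 and 0 in null (log2 fold change -6.05, adjusted p = 0.0446). Endoderm markers summed to 88.1 and 147 CPM in WT and 74.7 and 109 in null. The part of such transcripts in the results was not tested.

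The same contrast was made in the mesodermal labels on either side, from the same 4 libraries, to ask whether any change was particular to these cells. Lateral plate mesoderm (489 cells) had 13 genes past the test of 10004 (0.13%, with 3.67% at an unadjusted p under 0.05), and Paraxial mesoderm (328 cells) had 15 of 8931 (0.168%, with 4.89%). *Grb10* had a log2 fold change of -5.95 (SE 0.24) in the former and -4.84 (SE 0.22) in the latter, *Pusl1* -2.05 in both, and *H19* -3.02 and -3.17. These contrasts share their libraries, so their likeness is not independent evidence.

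The difference itself was tested as an interaction with the library as a block, at E7.5, a stage chosen after E9.5 had proved too sparse. Against Lateral plate mesoderm 0 of 9668 genes passed (0%, with 332, or 3.43%, at an unadjusted p under 0.05 in edgeR). Without WT A there were 26 and without WT B there were 4. *Cst3*, a secreted protease inhibitor, passed the adjusted p but not the fold limit. It was at 184 and 177 CPM in WT and 230 and 211 in null in the labelled cells, and at 480 and 422 in WT and 1085 and 993 in null in Lateral plate mesoderm, a difference in effect of -0.90 (SE 0.10, adjusted p = 1.28e-05). *Hspa12b*, lower in null cells here, was at 4.85 and 14.9 CPM in WT and 8.36 and 12.4 in null in Lateral plate mesoderm, and the difference of -3.12 (SE 0.65) did not pass (adjusted p = 0.199).

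Against Paraxial mesoderm 3 of 9414 genes passed (0.0319%, with 375, or 3.98%, at an unadjusted p under 0.05). *Meox1* was at 154 and 81.3 CPM in WT and 71.8 and 61.1 in null in the labelled cells, and at 46.2 and 19.2 in WT and 51.7 and 25 in null in Paraxial mesoderm. By CPM both null libraries were below both WT libraries in the labelled cells and the genotypes overlapped in Paraxial mesoderm, and the effects differed by -1.27 (SE 0.22, adjusted p = 0.00214). By the share of labelled cells with a *Meox1* UMI the genotypes overlapped, at 59.4% and 27.7% in WT and 37.2% and 29.6% in null after thinning, and at 78.3%, 32.3%, 62.3% and 70.4% without it. WT B was the lowest library by either share, with *Meox1* in 21 of its 65 cells. *Lefty2*, a Nodal antagonist of nascent mesoderm, was at 17.4 and 85.5 CPM in WT and 12 and 11.4 in null, and at 12.1 and 30.6 in WT and 17.0 and 14.7 in null in Paraxial mesoderm (-1.76, SE 0.30, adjusted p = 0.00214). WT B stood apart in both, and the call was lost without it. *Myl7*, a cardiac myosin light chain, was at 11.8, 12.6, 15.8 and 9.24 CPM here but at 169 and 222 in WT and 86.0 and 84.5 in null in Paraxial mesoderm (1.43, SE 0.26, adjusted p = 0.00420). The 3 genes were all lost without null A or without the library block, while the number passing rose to 7 to 10 when any library was left out.

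**Figure D5:**
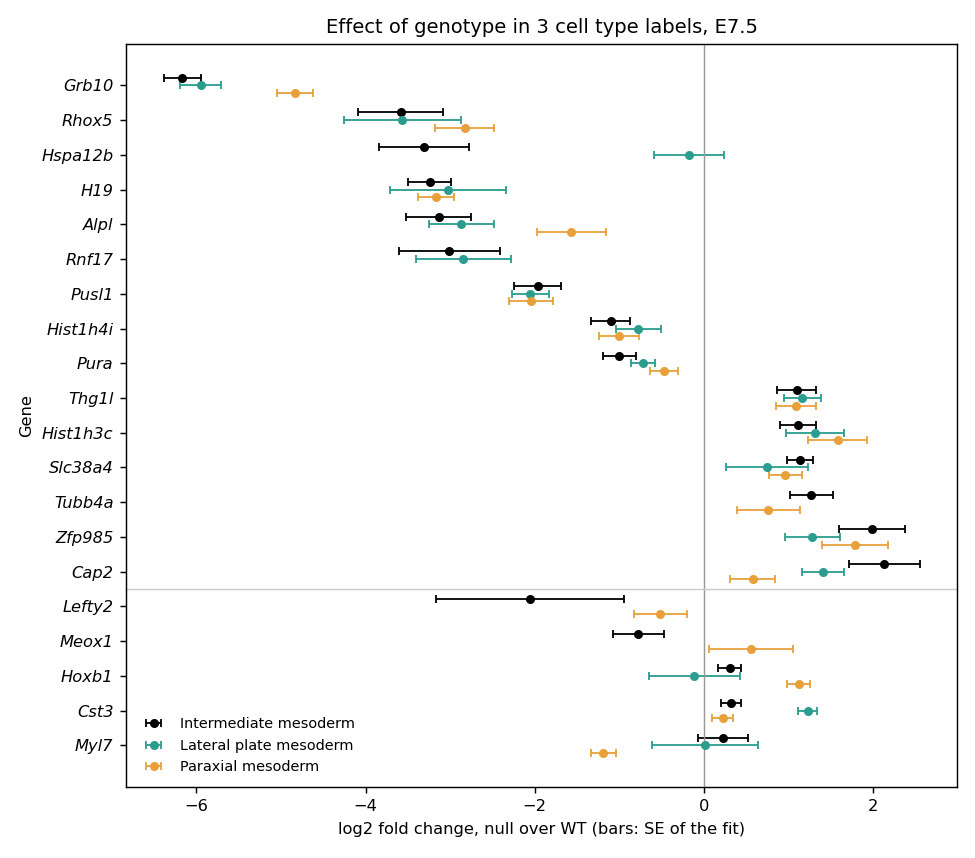
Log2 fold change of null over WT at E7.5, with the SE of the fit as bars, for 15 of the 16 genes that passed in Intermediate mesoderm (above the line) and the 5 whose effect differed between labels at an adjusted p under 0.05 (below it), in 3 cell type labels. A point is missing where a gene was too low to be tested, and *Grb10* lies furthest to the left in all 3.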

How the data were processed

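Chimeras were profiled with 10x 3′ v3 single-cell RNA sequencing. The authors mapped reads to mm10 with Cell Ranger and deposited raw UMI counts per gene and cell after their own quality filter (10003 to 99964 UMIs per cell). Per the file headers, the authors' table of cells gives the mitochondrial percent and the label score, a fraction of 25 nearest atlas cells, with labels and doublet calls (3395 cells). Libraries were grouped by the stage and sort columns, since their names match no sample title. WT-sorted cells with a tdTomato UMI (596) were left out, 2 of them Intermediate mesoderm.

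UMI counts were summed per library and label where over 15 cells were present. Of 29453 genes, 8178 (ribosomal, mitochondrial, haemoglobin, Y-linked, predicted and Rik genes, *Xist*, *Tsix* and tdTomato) were left out of the tests, and imprinted genes were kept. Genotypes were compared with edgeR 4.0.16 (filterByExpr, TMM, robust quasi-likelihood test, Benjamini-Hochberg adjustment), with DESeq2 1.42.0 as an alternative, in R 4.3.3. Thinned shares used 10000 UMIs per cell. Pipelines were tested on simulated data. Coordinates are GENCODE (GRCm38). Named genes were the markers, the called genes whose libraries did not overlap (at most 10 per direction), called list members, and otherwise the 2 of each list with the smallest p. Members, lists and rules were chosen with earlier results of these data known. Of the called genes, 1 is counted but not otherwise reported here.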

Additional observations from a re-analysis of the deposited data

Results flagged for a closer look

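Between labels, 5 genes had a genotype effect at E7.5 that differed at an adjusted p under 0.05 in the edgeR interaction test. Between Intermediate and Lateral plate mesoderm, the log2 effect on *Cst3* differed by -0.90 (SE 0.10), and this was lost only without the library block (adjusted p = 0.0871). Between Intermediate and Paraxial mesoderm, the effects differed by -1.27 (SE 0.22) for *Meox1*, by -1.76 (SE 0.30) for *Lefty2*, by -0.75 (SE 0.12) for *Hoxb1* and by 1.43 (SE 0.26) for *Myl7*. *Lefty2* and *Myl7* were lost without WT B, without null A or without the block. *Meox1* was lost without null A or without the block, and *Hoxb1* without WT A (adjusted p = 0.0722) or without the block.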

How the results depend on the processing

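The 16 genes called at E7.5 became 8 with DESeq2, 39 with no filter on low counts, 10 with over 50 cells per library (which leaves out null B) and 6 with only cells mapped to the 2 later stages, the last chosen after seeing the data. Leaving out each library gave 4 (null A left out) to 67 (WT A left out), with 25 for WT B. Of the 16, 7, 15, 8 and 5 kept their call in the first 4 settings, and no fold change reversed. The difference from Lateral plate mesoderm rose from 0 genes to 5 with no filter and ranged from 0 to 26 without each library (26 for WT A and 4 for WT B left out). The difference from Paraxial mesoderm, 3 genes, became 10 with no filter, 0 without the library block and 7 to 10 without each library. Both interaction tests at E7.5 were added after seeing the data. The log2 difference in the share of cells ranged from -0.30 with WT B left out to 0.85 with WT A left out. With all 4 libraries and no TMM it was 0.44. The cause of these shifts was not tested. A lone library was assumed to vary like the other group. Alternatives for genes at E8.5, E9.5 and between stages, and the planned interaction at E9.5, were not run, since no library held over 15 labelled cells, and a fit of all stages therefore holds the same 4 libraries. No paired analysis was possible because the library names carry no replicate number and do not say which null and WT libraries share an embryo pool. Depth limits a count of 0 to 0.346 CPM in null A and 2.13 in null B.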
